A study of Mus musculus with 11 samples.

Results

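Quiescence-only H3K36me3 regions are H3K36me3 peaks of quiescent satellite cells (QSCs) of young mice that shared no base with an H3K36me3 peak of activated satellite cells (ASCs) and lay at least 10 kb from the nearest one. They were chosen by the positions of the peaks in these 2 lists, so their absence from the ASC list is the rule and not a result. There were 5186 such peaks among the 20399 H3K36me3 peaks of QSCs, which is 25.4% of that list. A further 12073 QSC peaks overlapped an ASC peak, and 3140 overlapped none but lay under 10 kb from one.

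QSCs were VCAM+/CD31-/CD45-/Sca1- cells sorted from hindlimb muscles of male C57BL/6 mice, aged 2 to 3 months (young) or 22 to 24 months (old). The ASCs came from young mice of the same strain and sex. According to the sample descriptions, they were sorted QSCs kept for 3 days on a coated surface in F10 medium with horse serum, whereas the paper speaks of cells sorted from injured muscle, so ASCs may stand for culture or for regeneration. Each group here was 1 ChIP-seq library for 1 mark, namely H3K36me3 in young QSCs and ASCs, and H3K4me3 and H3K27me3 in young QSCs, ASCs and old QSCs. H3K36me3 of old QSCs was not analysed here. No group had a replicate, so the cell states are set side by side with no test. In each bulk population, fewer cells carrying a mark and less of the mark per cell cannot be told apart.

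In mammalian cells the enzyme SETD2 travels with elongating RNA polymerase II and lays down H3K36me3 along the bodies of transcribed genes, so that the mark follows transcription and tends to rise towards the 3' end. H3K4me3 marks promoters, and H3K27me3 is written by the Polycomb repressive complex PRC2 at silent genes. H3K36 methylation hinders PRC2 on the same histone tail, and H3K36me3 and H3K27me3 commonly occupy separate stretches of the genome. Satellite cells are the stem cells of skeletal muscle, and they replace much of their transcriptional programme when they leave quiescence.

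The position of genes was not used, because the peaks are in mm9 coordinates, as the submitters' processing notes state, and the annotation given was for GRCm38. The regions are therefore described by the other marks called at the same place and by their grouping along the chromosomes. For the same reason the sorted cells could not be checked against marker genes. The number of reads per library is unknown. The 8 lists held between 11658 and 42880 peaks. The H3K36me3 list of ASCs held 42880 peaks covering 70.0 Mb, against 29.1 Mb in QSCs, so the regions were missing from the longer of the 2 lists. The score of a peak is the one the peak caller MACS gives, which corresponds to -10 log10 of its p-value, with a lowest value of 50 and a highest of 3100 in the H3K36me3 list of QSCs. Shares carry 95% intervals by Wilson's method. These allow for counting error alone and take neighbouring peaks as independent.

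Quiescence-only peaks were narrow and ranked low in the QSC list. Their width ranged from 234 to 10198 bp with a median of 924 bp, and together they covered 5.53 Mb. QSC peaks overlapping an ASC peak had a median width of 1308 bp. The median score was 70.5 in the quiescence-only peaks, 71.0 in the QSC peaks under 10 kb from an ASC peak and 99.9 in those overlapping one. Of the quiescence-only peaks, 1595 (30.8%) had a score under 60 and 1260 (24.3%) had a score of 100 or more, while 50.0% of the overlapping peaks reached 100. Because the rule used both H3K36me3 lists, these values describe the members and are no evidence about them.

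**Figure D1:**
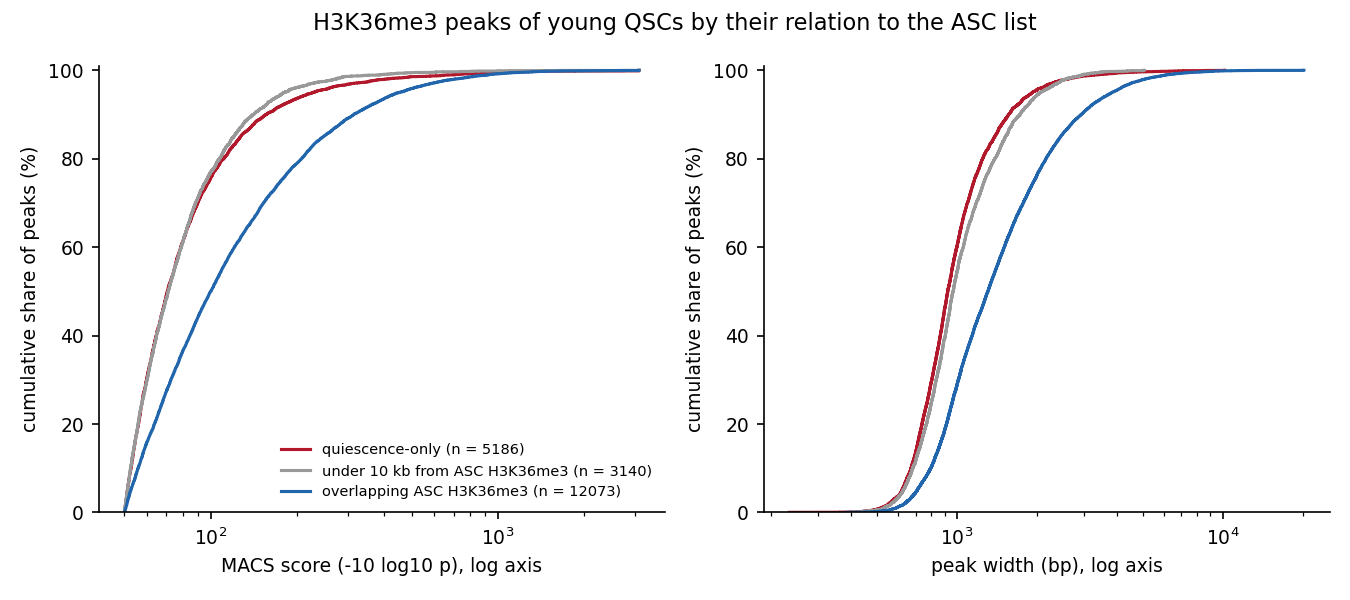
Cumulative share of the H3K36me3 peaks of young QSCs (y axis, in percent) against the MACS score (left) and the peak width in bp (right), both on log axes, for quiescence-only peaks, peaks under 10 kb from an ASC peak and peaks overlapping one. The curves of quiescence-only and nearby peaks run close together, with median scores of 70.5 and 71.0, and the overlapping peaks lie to the right with a median of 99.9.

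The distance to the nearest H3K36me3 peak of ASCs had a median of 95.8 kb, with the middle part of the distribution, from the 25th to the 75th percentile, between 32.3 and 332 kb. A total of 1769 members (34.1%) lay 200 kb or more away, and 475 (9.16%) lay 1 Mb or more away. The 3 members closest to the limit were 10014, 10015 and 10024 bp from an ASC peak, with scores of 215, 51.1 and 50.8. The 3 QSC peaks just under the limit were 9977, 9983 and 9999 bp away and had scores of 66.2, 55.9 and 60.8. The 1 kb above the limit held 96 peaks with a median score of 69.6, and the 1 kb below it held 118 with a median of 73.1.

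H3K4me3 of QSCs overlapped 1476 of the quiescence-only peaks, a share of 28.5% (27.2% to 29.7%), compared with 15.4% of all H3K36me3 peaks of QSCs. Among the QSC peaks overlapping ASC H3K36me3 the share was 10.1% (9.53% to 10.6%), and among those under 10 kb from an ASC peak it was 14.6% (13.4% to 15.9%). Counted by distance, the order was the other way. An H3K4me3 peak of QSCs lay within 10 kb of 45.1% (43.8% to 46.5%) of the members, of 54.5% (53.6% to 55.4%) of the overlapping peaks and of 51.8% of all H3K36me3 peaks of QSCs. The members were thus more often directly on an H3K4me3 peak and less often in its wider surroundings, and the median distance was 13.8 kb against 8.60 kb for the overlapping peaks.

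H3K4me3 of ASCs was found less often at the same places. It overlapped 642 members, a share of 12.4% (11.5% to 13.3%), compared with 11.0% of all H3K36me3 peaks of QSCs. Within 10 kb the share was 32.4% (31.1% to 33.6%), against 51.9% of all H3K36me3 peaks of QSCs and 59.3% (58.4% to 60.2%) of the overlapping peaks. The nearest H3K4me3 peak of ASCs was a median of 25.4 kb from a member, although the ASC list held 32846 H3K4me3 peaks and the QSC list 24701. At 910 members (17.5%) H3K4me3 was called in QSCs and not in ASCs, and at 76 (1.47%) it was called in ASCs and not in QSCs. In the overlapping peaks these shares were 5.18% and 4.51%.

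Seen from the H3K4me3 list, 1469 QSC peaks of H3K4me3 touched a quiescence-only region, and 922 of them, 62.8% (60.3% to 65.2%), had no H3K4me3 counterpart in ASCs. The share was 21.4% over all H3K4me3 peaks of QSCs, and 51.4% (48.6% to 54.1%) for those touching an H3K36me3 peak shared with ASCs. The H3K4me3 peaks at the members were weak, with a median score of 119 against 587 over the whole list, and so were those touching an H3K36me3 peak shared with ASCs, which also had a median of 119. With H3K4me3 scores of at least 100, the shares without a counterpart were 41.2% (37.9% to 44.6%) at members, 32.4% (29.1% to 35.9%) at H3K36me3 peaks shared with ASCs and 8.10% over the list.

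The share on an H3K4me3 peak of QSCs rose with the H3K36me3 score. It was 19.0% among members with a score under 60, 24.0% from 60 to 80, 28.5% from 80 to 100 and 46.1% at 100 or more. The corresponding shares in peaks overlapping ASC H3K36me3 were 3.53%, 4.04%, 5.02% and 16.0%, lower in every band. Of the 74 members with a score of 500 or more, 65 lay on an H3K4me3 peak of QSCs, a share of 87.8% (78.5% to 93.5%), against 52.7% (48.7% to 56.7%) of all 588 H3K36me3 peaks of QSCs with such a score. At 52 of the 74 (70.3%) H3K4me3 was called in QSCs and not in ASCs, against 33.8% of the 588. Most of the highest-scoring members thus lay on H3K4me3 peaks. At the 1476 members on H3K4me3 of QSCs, H3K4me3 peaks covered a median of 87.3% of the H3K36me3 peak. The median was 80.2% over all H3K36me3 peaks of QSCs that overlapped H3K4me3 of QSCs. Peaks of 2 antibodies on the same interval can come from different cells or different alleles of the bulk population.

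H3K27me3 was frequent at the quiescence-only regions, mainly in the libraries of ASCs and old QSCs. Their H3K27me3 lists held 38307 and 17635 peaks, against 11658 in young QSCs. These peaks covered 48.9 Mb in ASCs and 16.9 Mb in old QSCs, against 21.4 Mb in young QSCs. The part of list length or coverage in differences between cell states was not tested. H3K27me3 of young QSCs overlapped 413 members, a share of 7.96% (7.26% to 8.73%), against 2.90% of all H3K36me3 peaks of QSCs. In ASCs it overlapped 1515, a share of 29.2% (28.0% to 30.5%), against 11.0% of all H3K36me3 peaks of QSCs. Old QSCs had it at 1722 members, which is 33.2% (31.9% to 34.5%), against 11.7% of all H3K36me3 peaks of QSCs. With scores of at least 100 required in every list, H3K36me3 of ASCs included, the rule gave 1735 regions. Only 1260 of the 5186 members reached that score, so the other regions entered because weaker ASC peaks were left out. H3K27me3, with its lists cut in the same way, overlapped 19.5% of the 1735 in ASCs and 17.5% in old QSCs. The shares were 3.27% and 1.03% in the QSC peaks overlapping ASC H3K36me3 under this requirement. Without that requirement, the shares among these overlapping peaks in young QSCs, ASCs and old QSCs were 0.853% (0.704% to 1.03%), 4.69% (4.33% to 5.08%) and 4.32% (3.97% to 4.69%). The peaks under 10 kb from an ASC peak stood close to these last values, with 4.87% in ASCs and 4.59% in old QSCs. Their median H3K36me3 score was 71.0, against 70.5 in the members. By the rule they also lay beside ASC H3K36me3, and the part of the score in these shares was not tested.

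**Figure D2:**
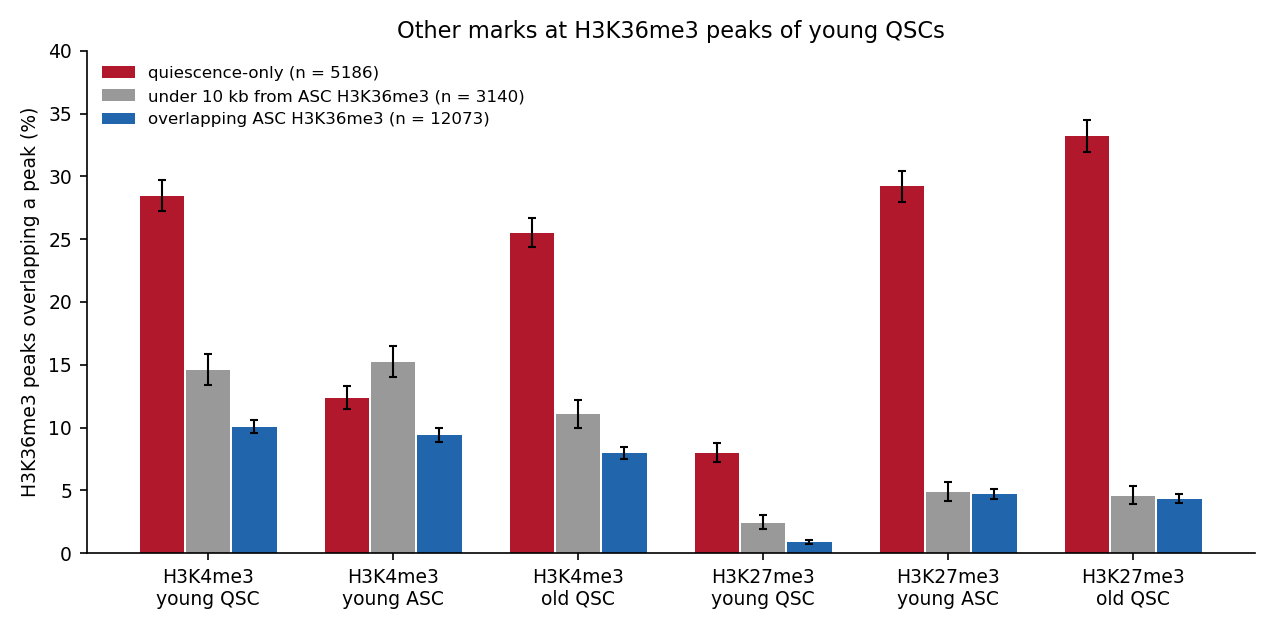
Share of H3K36me3 peaks of young QSCs (y axis, in percent) that overlapped a peak of each of 6 other lists, with Wilson 95% intervals as error bars, for quiescence-only peaks, peaks under 10 kb from an ASC H3K36me3 peak and peaks overlapping one. The quiescence-only bars are the highest in every list except H3K4me3 of ASCs, and reach 33.2% for H3K27me3 of old QSCs.

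H3K27me3 peaks lay within 10 kb of 12.8% of the members in young QSCs, 40.5% in ASCs and 41.0% in old QSCs, compared with 7.74%, 22.9% and 21.8% of all H3K36me3 peaks of QSCs. The members' H3K27me3 shares differed between bands of the H3K36me3 score, without a common order. For young QSCs they went from 6.27% (5.18% to 7.57%) under 60 to 11.3% (9.64% to 13.1%) at 100 or more. For old QSCs they were 31.5%, 35.5%, 36.3% and 30.6% in members of the 4 score bands from under 60 to 100 or more, and 1.45%, 2.72%, 3.10% and 6.22% in peaks overlapping ASC H3K36me3. For ASCs they were 24.8%, 28.9%, 33.2% and 32.9% in members, and 1.56%, 1.84%, 2.42% and 7.48% in the overlapping peaks. In every band and both cell states the share was higher in the members.

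The libraries of ASCs and old QSCs often had H3K27me3 peaks in the same place. Both called H3K27me3 at 1164 members (22.4%), against 7.23% of all H3K36me3 peaks of QSCs. This is 76.8% of the members with H3K27me3 in ASCs and 67.6% of those with H3K27me3 in old QSCs, and the same shares over all H3K36me3 peaks of QSCs were 66.0% and 61.8%. At 1144 members (22.1%) H3K27me3 was called in ASCs and not in young QSCs, against 8.39% of all H3K36me3 peaks of QSCs, and at 1400 it was called in old and not in young QSCs, against 9.53%. The H3K27me3 peaks at the members covered a median of 100% of the member in young QSCs, 88.9% in ASCs and 99.9% in old QSCs, so the marks were not merely adjacent. The young QSC value includes 31 members inside a single wide H3K27me3 peak on chromosome 8, which was also the longest run of members. Over all H3K36me3 peaks of QSCs overlapping H3K27me3, most of which were members, the medians were 100%, 82.6% and 95.4%. They were 100%, 91.8% and 88.4% in peaks under 10 kb from an ASC peak. In peaks overlapping one they were lower, at 88.9%, 54.8% and 57.2%, and these peaks were wider. High coverage by H3K27me3 of ASCs and old QSCs was thus shared with the nearby peaks and not with the overlapping ones.

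H3K4me3 of old QSCs overlapped 25.5% (24.3% to 26.7%) of the members, 1323 in number, against 12.9% of all H3K36me3 peaks of QSCs, and it lay within 10 kb of 42.5% of them against 48.4%. Of these members, 1018 also had H3K27me3 in old QSCs, or 76.9% (74.6% to 79.1%), against 49.4% over all H3K36me3 peaks of QSCs. At 466 members (8.99%) both marks were called in old QSCs and neither was called in young QSCs, compared with 2.73% of all H3K36me3 peaks of QSCs and 0.621% of those overlapping ASC H3K36me3. Age and library cannot be told apart, since each age was 1 library per mark.

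Sorted by the combination of the 6 other lists, the quiescence-only regions formed distinct kinds. The most frequent kind carried no peak of any of them and held 2466 members, a share of 47.6% (46.2% to 48.9%), against 71.7% of all H3K36me3 peaks of QSCs and 80.6% (79.9% to 81.3%) of those overlapping ASC H3K36me3. These bare members had a median width of 912 bp, a median score of 67.1 and a median distance of 57.0 kb to ASC H3K36me3. An H3K4me3 peak of QSCs lay within 10 kb of 658 of them, which is 12.7% of all members. Bare peaks of that kind made up 30.8% of all H3K36me3 peaks of QSCs. For 1611, or 31.1% of all members, neither QSCs nor ASCs had H3K4me3 within 10 kb. That is near the 33.5% over all H3K36me3 peaks of QSCs.

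The next kind, H3K4me3 of young QSCs alone, held 353 members (6.81%, against 3.70% of all H3K36me3 peaks of QSCs) with the highest median score among the 10 most frequent combinations, 132. H3K4me3 of old QSCs with H3K27me3 of ASCs and of old QSCs followed with 284 members (5.48%, against 1.54%) at a median of 482 kb from ASC H3K36me3. H3K27me3 of ASCs and old QSCs without H3K4me3 held 250 members (4.82%, against 1.52%) at a median of 254 kb, and H3K27me3 of old QSCs alone held 231 (4.45%, against 2.17%) at 315 kb. All 6 lists had a peak at 228 members, a share of 4.40% (3.87% to 4.99%), against 1.50% of all H3K36me3 peaks of QSCs and 0.298% of those overlapping ASC H3K36me3. These 228 lay closer, at a median of 66.7 kb, and had a median score of 72.1.

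The kinds changed with the distance from ASC H3K36me3. Between 10 and 20 kb, 61.5% of the members carried none of the 6 lists, and at 1 Mb or more 14.7% did. H3K27me3 of old QSCs overlapped 16.7% of the members between 10 and 20 kb, 17.2% between 20 and 50 kb, 26.6% between 50 and 200 kb, 49.2% between 200 kb and 1 Mb and 73.3% (69.1% to 77.0%) beyond. H3K27me3 of ASCs followed the same order, from 18.2% to 50.7%, and H3K4me3 of old QSCs went from 18.8% to 47.2%. H3K4me3 of young QSCs stayed between 24.3% and 30.5%, and H3K4me3 of ASCs went down from 17.3% to 5.47%. The median H3K36me3 score stayed between 69.4 and 72.7 in these bins, and the median width went from 969 to 871 bp.

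**Figure D3:**
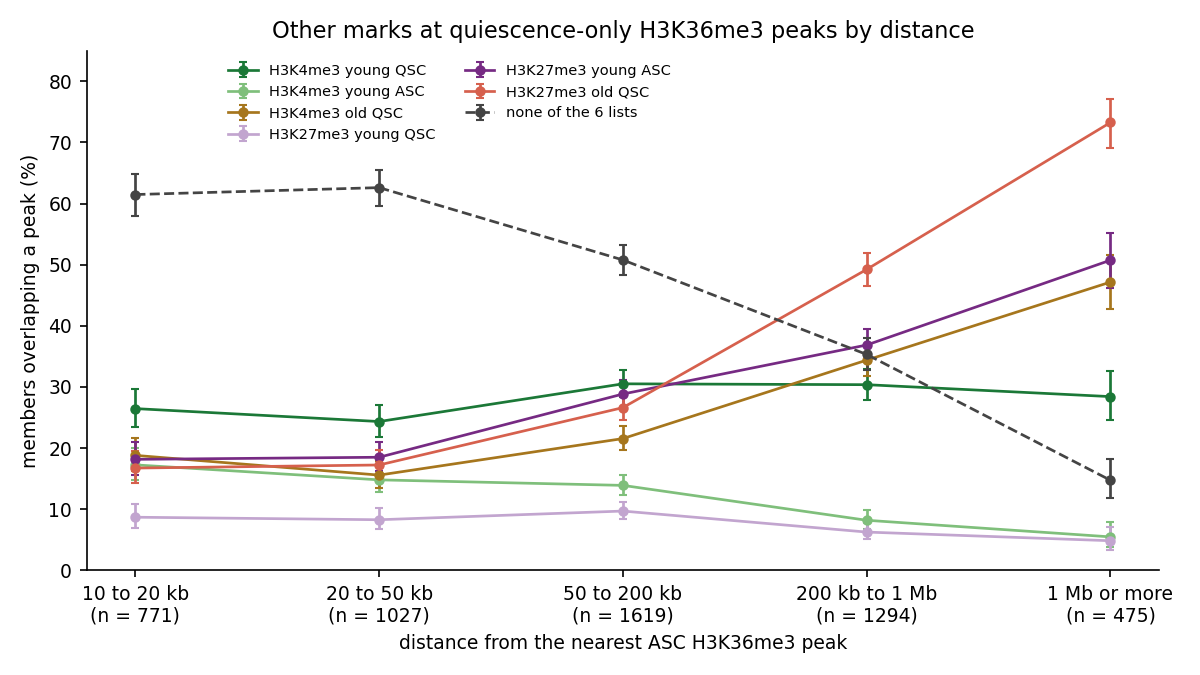
Share of quiescence-only H3K36me3 peaks (y axis, in percent) that overlapped a peak of each of 6 other lists, or of none, in 5 bins of distance from the nearest ASC H3K36me3 peak (x axis), with Wilson 95% intervals as error bars. H3K27me3 of old QSCs goes from 16.7% to 73.3% while the share without any other mark goes from 61.5% to 14.7%.

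The widest members were the least often marked by H3K27me3 of old QSCs. The share was 32.4% under 750 bp, 36.1% from 750 to under 1000 bp, 35.3% from 1000 to under 1500 bp, 22.1% from 1500 to under 2500 bp and 11.5% (6.85% to 18.7%) in the 113 members of 2500 bp or more. H3K4me3 of young QSCs went the other way, from 18.3% to 39.8% over the same bins. The median H3K36me3 score of the members also rose over these bins, from 56.95 to 288. Shares by width were not counted over all H3K36me3 peaks of QSCs, so these trends may not be particular to the members.

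Most quiescence-only regions had no other member within 50 kb. H3K36me3 peaks of QSCs outside the members were not counted as neighbours. When members with gaps of at most 50 kb were joined, the 5186 peaks formed 3918 groups, of which 3232 held a single member, a share of 62.3% of all members. Runs of 3 or more held 1040 members in 229 runs, a share of 20.1% (19.0% to 21.2%). Among the QSC peaks overlapping ASC H3K36me3, joined with each other in the same way, 79.6% (78.9% to 80.3%) were in such runs and 11.0% were alone. These peaks were more numerous, at 12073, and the influence of number and rule on the run shares was not tested. Taking all H3K36me3 peaks of QSCs together, 73.2% were in runs of 3 or more.

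Solitary members and those in runs also differed in the other marks. H3K27me3 of old QSCs overlapped 42.2% of the solitary members, 25.9% of pairs, 14.9% of members in runs of 3 to 4, 6.21% (3.96% to 9.60%) of those in runs of 5 to 9 and 9.94% (6.38% to 15.2%) of those in runs of 10 or more. H3K27me3 of ASCs went from 34.7% of the solitary members to 9.66% in runs of 5 to 9 and was 33.1% in runs of 10 or more, or 19.3% without the longest run. None of the 6 lists had a peak at 38.6% of the solitary members and at 79.3% of those in runs of 5 to 9. The median width was 889 bp in solitary members and 1113 bp in runs of 5 to 9. In the 12 runs of 10 or more, 58.6% of the 181 members carried none of the 6 lists, and 70.7% did when the longest run was left out.

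The run with the second most members lay on chromosome 2, from 31177090 to 31301244 in mm9 coordinates. It held 30 members, which covered 79.2 kb of its 124 kb, a share of 63.8%. The scores ranged from 63.2 to 934, with a median of 116, and the widest member reached 10198 bp, the widest of all quiescence-only regions. ASC H3K36me3 had no peak in the run and came no closer than 13.0 kb to any of its members. No H3K27me3 peak of any cell state lay in the run. H3K4me3 peaks within it numbered 4 in young QSCs, 2 in ASCs and 0 in old QSCs, with highest scores of 90.2 in QSCs and 163 in ASCs. The long H3K36me3 stretch itself was thus nearly free of the other marks, but strong H3K4me3 peaks lay just before it. From its start, they lay at -8.771 to -4.84 kb in young QSCs (score 1447) and -8.43 to -4.842 kb in old QSCs (3113). In ASCs an H3K4me3 peak (1922) lay at -7.935 to -6.475 kb and an H3K27me3 peak (613) at -8.218 to -6.335 kb.

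The longest run, on chromosome 8 from 126074716 to 126148605, held 31 members covering 86.1% of its 73.9 kb. It lay wholly inside an H3K4me3 peak of young QSCs that was 87758 bp wide and inside H3K27me3 peaks of 87904 bp in young QSCs and 87938 bp in ASCs. ASC H3K4me3 covered 99.3% of the run. In old QSCs it held no H3K4me3 peak and 1 H3K27me3 peak, which was 6674 bp wide and covered 9.03% of it. ASC H3K36me3 had no peak in the run, although it was called from 12.6 kb before it. All 31 members were therefore called in all the other young lists except H3K36me3 of ASCs. Enrichment of the block in the input libraries was not tested, so its members are doubtful as H3K36me3, H3K4me3 or H3K27me3 regions. They are included in the counts above, and without them the members overlapping H3K27me3 of young QSCs were 382 (7.41%) and those overlapping H3K4me3 of ASCs 611 (11.9%). Without the members of these 2 runs, H3K27me3 overlapped 29.0% of the remaining 5125 members in ASCs and 33.5% in old QSCs.

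**Figure D4:**
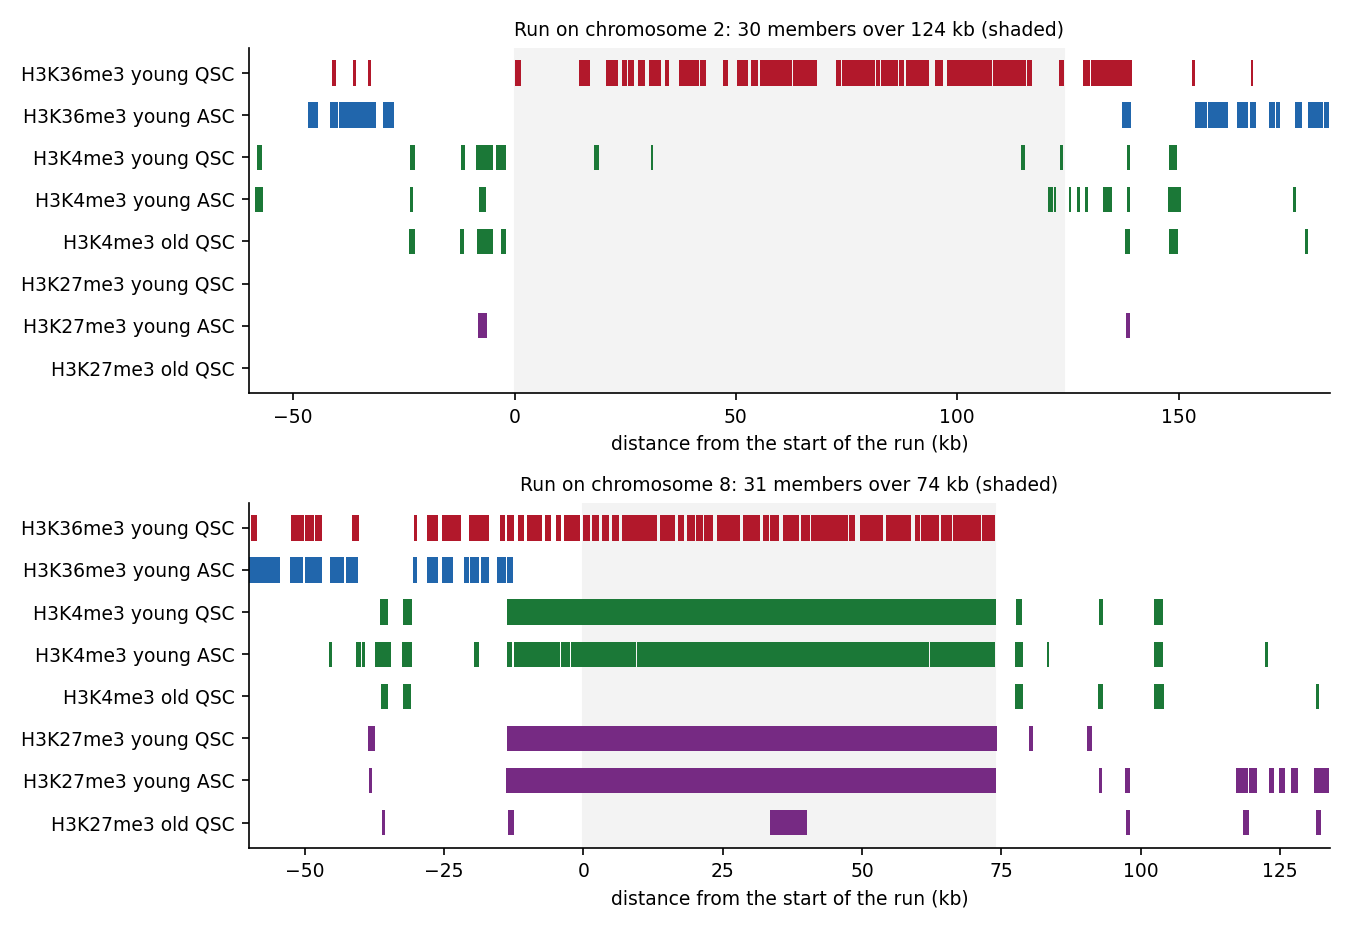
Peaks of the 8 lists (bars, drawn to scale) along the quiescence-only runs on chromosome 2 (top) and chromosome 8 (bottom), with the distance in kb from the start of the run on the x axis and the run shaded. H3K36me3 peaks of QSCs outside the shading lay under 10 kb from ASC H3K36me3 or overlapped it. On chromosome 2 the run itself is nearly free of other marks, with H3K4me3 peaks just before it. On chromosome 8 the run lies within a single H3K4me3 peak of 87758 bp and a single H3K27me3 peak of 87904 bp in young QSCs.

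The other runs among the longest held 16 members on chromosome 12 (76988956 to 77211484), 14 on chromosome 11 (99633343 to 99887149), and 13 each on chromosome 12 (106007915 to 106093326) and chromosome 4 (53054059 to 53179114). The spans with 16 and 14 members each also held 1 H3K36me3 peak of ASCs, with scores of 59.9 and 51.9. Each of these spans held 3 QSC H3K36me3 peaks that were not members. The spans with 13 members held neither. Neither run on chromosome 12 had an H3K27me3 peak in any cell state, and no member of them lay on H3K4me3. The run on chromosome 4 had 1 H3K27me3 peak in ASCs and 1 in old QSCs, and 1 of its members overlapped H3K4me3 of young QSCs. The run on chromosome 11 was of another kind. It held 23 H3K27me3 peaks in ASCs and 13 in old QSCs against 4 in young QSCs, and 17 H3K4me3 peaks in young QSCs against 9 in ASCs. Of its 14 members, 11 lay on H3K4me3 of young QSCs and 9 on H3K27me3 of ASCs.

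The highest score of the list, 3100, was held by 11 H3K36me3 peaks of QSCs, while the H3K4me3 list of QSCs reached 3233. Of these, 6 were members, all of which lay on H3K4me3 of young QSCs. The widest of them, chr17:39979415-39986290, was 1077 kb from ASC H3K36me3 and was called in every other list except H3K4me3 of old QSCs, with scores of 3100 for H3K4me3 and H3K27me3 of young QSCs, 237 for H3K4me3 of ASCs, 3100 for H3K27me3 of ASCs and 2555 for H3K27me3 of old QSCs. All 3 antibodies thus gave a peak with a score of 3100 there in young QSCs. As in the longest run, enrichment of this region in the input libraries was not tested. It is therefore doubtful as an H3K36me3, H3K4me3 or H3K27me3 region. Nor was input tested at the other members with this score. On the same chromosome, chr17:13742390-13746591 and chr17:13498652-13499506 carried H3K4me3 of young and old QSCs and H3K27me3 of ASCs and old QSCs. The former had an H3K4me3 score of 3100 in young and 329 in old QSCs, and the latter of 2233 and 220.

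The region chr3:59848561-59850253 lay 501 kb from ASC H3K36me3 and was called in 5 of the 6 lists, all but H3K4me3 of ASCs. The remaining members with this score had fewer marks. At chr5:25321375-25324725 only H3K4me3 of young QSCs was called, with a score of 1048, and at chr5:104759527-104761522 H3K4me3 of young QSCs scored 3100 and H3K27me3 of ASCs 96.8. At none of these 6 regions except the widest was H3K4me3 called in ASCs, whose nearest H3K4me3 peak was between 46.2 and 342 kb away from the other 5.

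The 5 widest members were of the other kind. Besides the region of 10198 bp, the run on chromosome 2 held chr2:31232636-31239756, with a width of 7121 bp and a score of 771. On the X chromosome, chrX:166616986-166627051 was 10066 bp wide with a score of 194 and lay 865 kb from ASC H3K36me3. On chromosome 17, chr17:34849713-34858201 was 8489 bp wide with a score of 910, within a run of 10. None of these 4 overlapped any of the 6 other lists. The fifth, chr15:78605034-78612640, was 7607 bp wide with a score of 1189 and overlapped H3K4me3 of young QSCs with a score of 109, and of old QSCs with 54.4.

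The quiescence-only share of the H3K36me3 peaks differed between chromosomes. It ranged from 17.6% on chromosome 5 to 36.8% on chromosome 3 among the 19 autosomes, and was 83.8% (77.6% to 88.6%) on the X chromosome, where 145 of 173 peaks were quiescence-only. The H3K36me3 list of ASCs held 134 peaks on the X chromosome, 0.775 of the number in QSCs, whereas on the autosomes it held between 1.71 and 2.80 times as many. The X members carried H3K27me3 of old QSCs in 74.5% (66.8% to 80.9%) and H3K27me3 of ASCs in 55.2% (47.0% to 63.0%), against 32.0% and 28.5% of the autosomal members. For H3K27me3 of young QSCs the shares were 4.83% and 8.04%. In the whole H3K27me3 lists, 3.90% of the peaks of old QSCs, 1.26% of ASCs and 0.815% of young QSCs lay on the X chromosome. The X members lay at a median of 2168 kb from ASC H3K36me3, against 89.9 kb on the autosomes, and their median score of 69.0 was close to the autosomal 70.6.

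**Figure D5:**
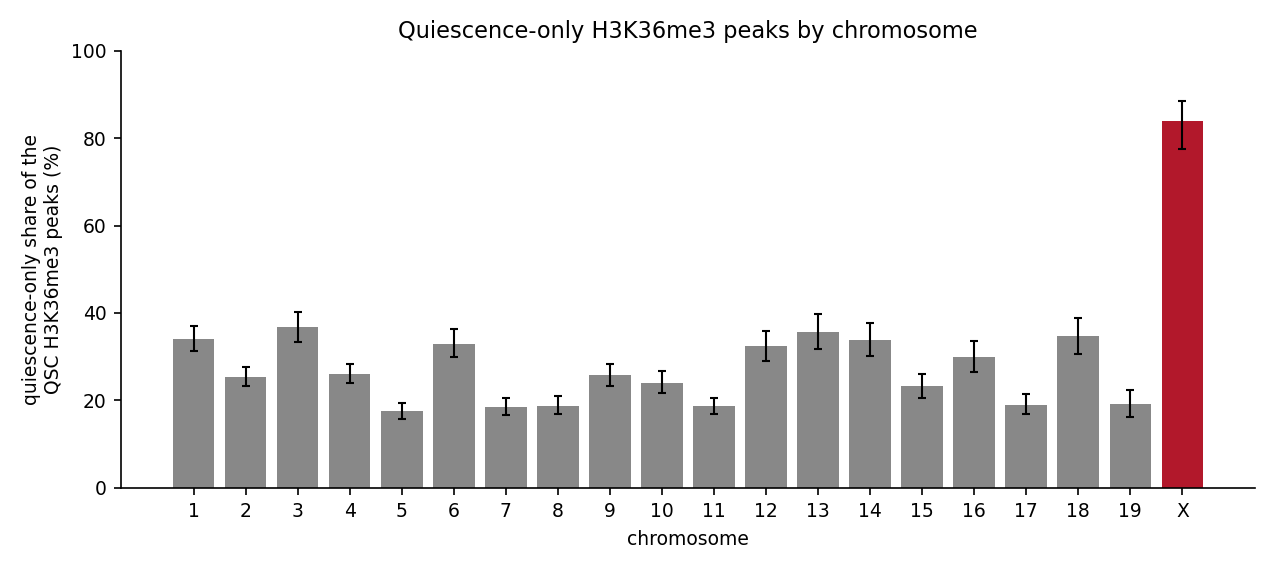
Share of the H3K36me3 peaks of young QSCs on each chromosome (x axis) that were quiescence-only (y axis, in percent), with Wilson 95% intervals as error bars and the X chromosome in red. The autosomes lie between 17.6% and 36.8%, and the X chromosome at 83.8%.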

How the data were processed

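H3K36me3, H3K4me3 and H3K27me3 ChIP-seq libraries, 1 per cell state and mark, were taken as peak lists. The authors deposited a start, an end and a MACS score per peak, called per library against an input library, and the submitters' processing notes name Bowtie and mm9. Versions, read depth and the handling of duplicates are not given in the sources used here, so scores were ranked and banded only within a list, and those of different lists are given side by side with no comparison.

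The chosen regions and limits were set with earlier results of these data known. Distances are the bases between 2 peaks, and an overlap is at least 1 bp. H3K4me3 counts as near at 10 kb or less, and runs join members with gaps of at most 50 kb. Starts were written 1-based. The class and run functions were tested on simulated data, and 4 counts by overlap or distance were the same with bedtools 2.31.1. Python 3.11.15, numpy 2.4.6, pandas 2.3.3, scipy 1.17.1 and matplotlib 3.10.9 were used. Regions were named by rule, as the 5 members with the highest score, the 5 widest, the 5 longest runs and the 3 peaks on each side of the distance limit, with ties kept. Genes were to be named only with an mm9 annotation, so none is named. The alternatives were a score of at least 100 in every list, other distances, overlaps and gaps, an ASC H3K36me3 list shortened by score to the size of the QSC list, and peaks with gaps under 1 kb merged. The 3 input libraries were not analysed here.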

Additional observations from a re-analysis of the deposited data

How the results depend on the processing

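With 1 library per group and unknown depth, absence from a list means that no peak was called, and the intervals cover counting error only. The share overlapping H3K27me3 was higher in quiescence-only peaks than in peaks overlapping ASC H3K36me3 under all 8 alternatives, for ASCs and for old QSCs. With scores of at least 100 in every list the rule gave 1735 peaks, more than the 1260 members with such a score. Of the 1735, 17.3% were in runs of 3 or more, and H3K27me3 overlapped 19.5% in ASCs and 17.5% in old QSCs. At 50 kb or more from ASC H3K36me3 there were 3388, with 15.1% in runs, H3K4me3 within 10 kb at 40.8% in QSCs and 22.6% in ASCs, and H3K27me3 at 35.0% in ASCs and 41.8% in old QSCs. With no minimum distance there were 8326, and the same values were 34.6%, 47.9%, 41.1%, 20.03% and 22.4%. With the ASC H3K36me3 list shortened by score to the size of the QSC list, 29.9% were in runs, H3K4me3 of ASCs lay within 10 kb of 36.4%, and H3K27me3 overlapped 23.2% in ASCs and 26.0% in old QSCs. With peaks less than 1 kb apart merged, 15.1% were in runs and H3K27me3 of old QSCs overlapped 34.6%. With an overlap in place of 10 kb, the H3K4me3 shares were 28.5% in QSCs and 12.4% in ASCs, and both then exceeded those of peaks overlapping ASC H3K36me3, at 10.1% and 9.39%. Gaps of at most 20 and 100 kb put 14.9% and 27.5% in runs. Leaving out the 2 longest runs or the X chromosome, chosen after the data were seen, moved no share out of its interval. No paired analysis was possible because each group held 1 library.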

Other observations

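The same rule applied in the other direction gave 17319 H3K36me3 peaks of ASCs that lay 10 kb or more from every H3K36me3 peak of QSCs, 40.4% (39.9% to 40.9%) of that list. The width of these activation-only peaks had a median of 1059 bp, and their score a median of 88.2 in their own list. Runs of 3 or more held 86.2% (85.6% to 86.7%) of them, against 20.1% of the quiescence-only peaks. H3K27me3 overlapped 0.375% of them in young QSCs, 0.779% (0.659% to 0.922%) in ASCs and 0.935% in old QSCs, whereas the quiescence-only shares were 7.96%, 29.2% and 33.2%. H3K4me3 overlapped 1.01% of them in QSCs, 3.54% in ASCs and 1.17% in old QSCs, against 28.5%, 12.4% and 25.5% of the quiescence-only peaks. Peaks found in only 1 of the H3K36me3 lists were thus mostly in runs of their own set and seldom overlapped other marks on the activated side. On the quiescent side they were largely apart from each other and often shared with other marks. The activated set was the larger, and the effect of set size on grouping was not tested. The same shares over all H3K36me3 peaks of ASCs were not counted. Whether the activation-only peaks differ from their list as a whole is therefore unknown.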
